A study of Mus musculus with 20 samples.

Results

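The organic anion and cation transporters described here are 9 genes: Slc22a2, Slc22a6, Slc22a7, Slc22a8, Slc22a12, Slc22a30, Slco1a1, Slco4c1 and Slc47a1. They were selected by gene symbol and not by a threshold on their values, and all 9 were found among the 26608 genes of one count table and the 30809 genes of another. The kidneys came from aged mice that had received a bone marrow transplant, which gave them a blood system of Control or LOY genotype. LOY stands for loss of Y, here of the Y chromosome in cells that form blood. The first table held 6 LOY and 6 Control kidneys. The second held LOY kidneys only, 4 from mice given the senolytic ABT-263 (navitoclax, an inhibitor of BCL-2 family proteins) and 4 from mice given a control compound. The labels give each library as 1 kidney of 1 numbered animal. Some animal numbers occur in both tables under different groups, and whether these are the same animals is not stated. The labels also do not state strain, sex, age in months, dose or how LOY was produced. The genotype is that of the blood system and not of the kidney cells.

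Cells of the proximal tubule take drugs, toxins and metabolites from the blood across their basolateral membrane and release them into the urine across their apical membrane. Uptake of organic anions by OAT1 (Slc22a6) and OAT3 (Slc22a8) is driven by exchange against dicarboxylates, whose gradient depends on sodium-coupled dicarboxylate transporters. Organic cations enter through OCT2 (Slc22a2) and leave through the proton exchanger MATE1 (Slc47a1), while URAT1 (Slc22a12) moves urate from the filtrate back into the cell.

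Total counts over named genes lay between 13332600 and 19386400 per kidney in the LOY table and between 14587800 and 20791600 in the ABT-263 table. Levels are given as CPM, counts scaled to a common library size with TMM factors within a table. Levels of the tables are not compared, because mitochondrially encoded genes took 7.91% to 11.1% of the counts in the ABT-263 table and the LOY table listed none. Every kidney had transcripts of the Y-linked genes Ddx3y, Eif2s3y, Kdm5d and Uty, the lowest being 152 counts of Kdm5d in the LOY table. Kidney identity was checked on proximal tubule markers: those of segments S1 and S2 summed to 4071 to 9260 CPM in LOY kidneys and 8958 to 12575 CPM in Control kidneys, and to 6889 to 10369 CPM in ABT263 and 7744 to 9442 CPM in control-compound kidneys. Of 4 adrenal cortex markers, 3 were too low to be tested in either table (Cyp11a1, Cyp11b1 and Cyp21a1).

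A pair of kidneys in the ABT-263 table stood apart and both are named where they touch a result. In control-compound animal 6 the androgen-dependent kidney genes summed to 6505 CPM, against 15164 to 19192 CPM in the other control-compound kidneys. In ABT263 animal 16 the tubular injury genes summed to 19101 CPM, against 1666 to 2408 CPM in the other ABT263 kidneys. A length index was taken per kidney as the median log2 deviation of genes with transcripts of at least 4745 bases minus that of genes with at most 2152 bases. In the LOY table it was -0.94 in LOY animal 8 and -0.24 to 0.26 in the other 11 kidneys.

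The genes lie on 5 chromosomes (GENCODE M21, GRCm38), and 4 of them lie on chromosome 19. Slc22a8 (chromosome 19, 8591254 to 8611835, plus strand) and Slc22a6 (8618039 to 8628299, plus strand) are neighbours with 6203 bases between them. Slc22a30 (8335371 to 8405111, minus strand) lies 186142 bases before Slc22a8, and Slc22a12 (6535845 to 6543032, minus strand) lies apart from these. Of the 7 transporters with a RefSeq promoter entry, the 250 bases before the start are shown for Slco4c1 because it had the largest fold change between LOY and Control kidneys, and for Slco1a1 because it had the largest coefficient of variation in Control kidneys (42.5%). Sequences are from RefSeq (GRCm38.p6), 5′ to 3′ on the gene's strand. Capitals mark the steroid receptor half-site AGAACA, which the Slco4c1 stretch holds on the opposite strand.
Slco4c1, chr1:96872172-96872421, minus strand: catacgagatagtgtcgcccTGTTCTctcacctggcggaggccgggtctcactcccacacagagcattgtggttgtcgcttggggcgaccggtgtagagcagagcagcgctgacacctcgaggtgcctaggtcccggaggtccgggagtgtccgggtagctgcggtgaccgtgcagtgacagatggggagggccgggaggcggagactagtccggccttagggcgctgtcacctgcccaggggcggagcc
Slco1a1, chr6:141946963-141947212, minus strand: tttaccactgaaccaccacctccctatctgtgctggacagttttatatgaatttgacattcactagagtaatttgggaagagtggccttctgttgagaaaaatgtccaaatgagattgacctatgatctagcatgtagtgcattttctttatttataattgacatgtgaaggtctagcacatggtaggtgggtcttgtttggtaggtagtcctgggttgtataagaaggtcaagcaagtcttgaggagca

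AGAACA, searched on both strands, was found in 1 of 7 promoters of the transporters (Slco4c1, with 224 bases between match and start) and in 16.1% of 32851 mouse promoters of the same length. The HNF4 letters CAAAGTCCA were found in 0 of 7 and in 0.384% of all. These matches describe letters in a window and are not binding sites. By GENCODE M21, all 250 bases of the Slc22a8 window lie in exons of that gene. The windows of Slc22a2 and Slc22a30 have 57 and 6 bases in exons of their genes. Guanine and cytosine made up 66.4% of the Slco4c1 stretch and 40.4% of the Slco1a1 stretch.

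Levels were compared between genes as CPM per kilobase of exon. URAT1 (Slc22a12) was the most abundant in every group, at 635 ± 123 CPM per kilobase in LOY and 739 ± 74.6 in Control kidneys (SD, n = 6 each). It was followed in every group by MATE1 (Slc47a1), OAT1 (Slc22a6), OAT3 (Slc22a8) and OCT2 (Slc22a2), with LOY means of 269, 244, 189 and 166 CPM per kilobase and Control means of 298, 262, 204 and 157. The ranges of URAT1 and MATE1 did not overlap in either group, whereas those of neighbours from MATE1 down to OCT2 overlapped in both groups. Slc22a30, Slc22a7 and Slco1a1 formed a lower set, with means of 50.9, 51.9 and 27.6 CPM per kilobase in LOY kidneys and 57.5, 45.4 and 30.7 in Control kidneys. Slco4c1, the OATP4C1 carrier of digoxin and thyroid hormones, was the lowest in every group, with 1.78 ± 1.47 CPM per kilobase in LOY and 3.76 ± 1.19 in Control kidneys. In the ABT-263 table the same 5 genes led in the same order, with URAT1 at 348 ± 47.5 CPM per kilobase in ABT263 and 409 ± 91.7 in control-compound kidneys (SD, n = 4 each).

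The first comparison asks how kidneys differ when the blood system has lost the Y chromosome. Of the 9 transporters, 0 passed the threshold in edgeR's quasi-likelihood test (adjusted p under 0.05), where 1.18% of all 14978 tested genes passed. Animal numbers were above 10 for 2 of 6 LOY and 5 of 6 Control animals, so number and group are partly confounded. With number above 10 as a term, 0 of the 9 and 0 of all genes passed, against 176 genes without it, and leaving out 1 kidney gave 0 of the 9 and 0 to 607 of all genes. None of the 9 had an unadjusted p under 0.05, against 22.8% of all genes, and 0 passed in DESeq2 or in limma voom. The groups overlapped for all 9, against 2.02% of genes whose groups did not overlap. Their log2 fold changes lay between -1.08 and 0.19, with 7 below 0, 2 above 0 and a median of -0.15, while the median over all tested genes was 0.02. In whole kidney, fewer cells of a type and less RNA per cell cannot be told apart.

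**Figure D1:**
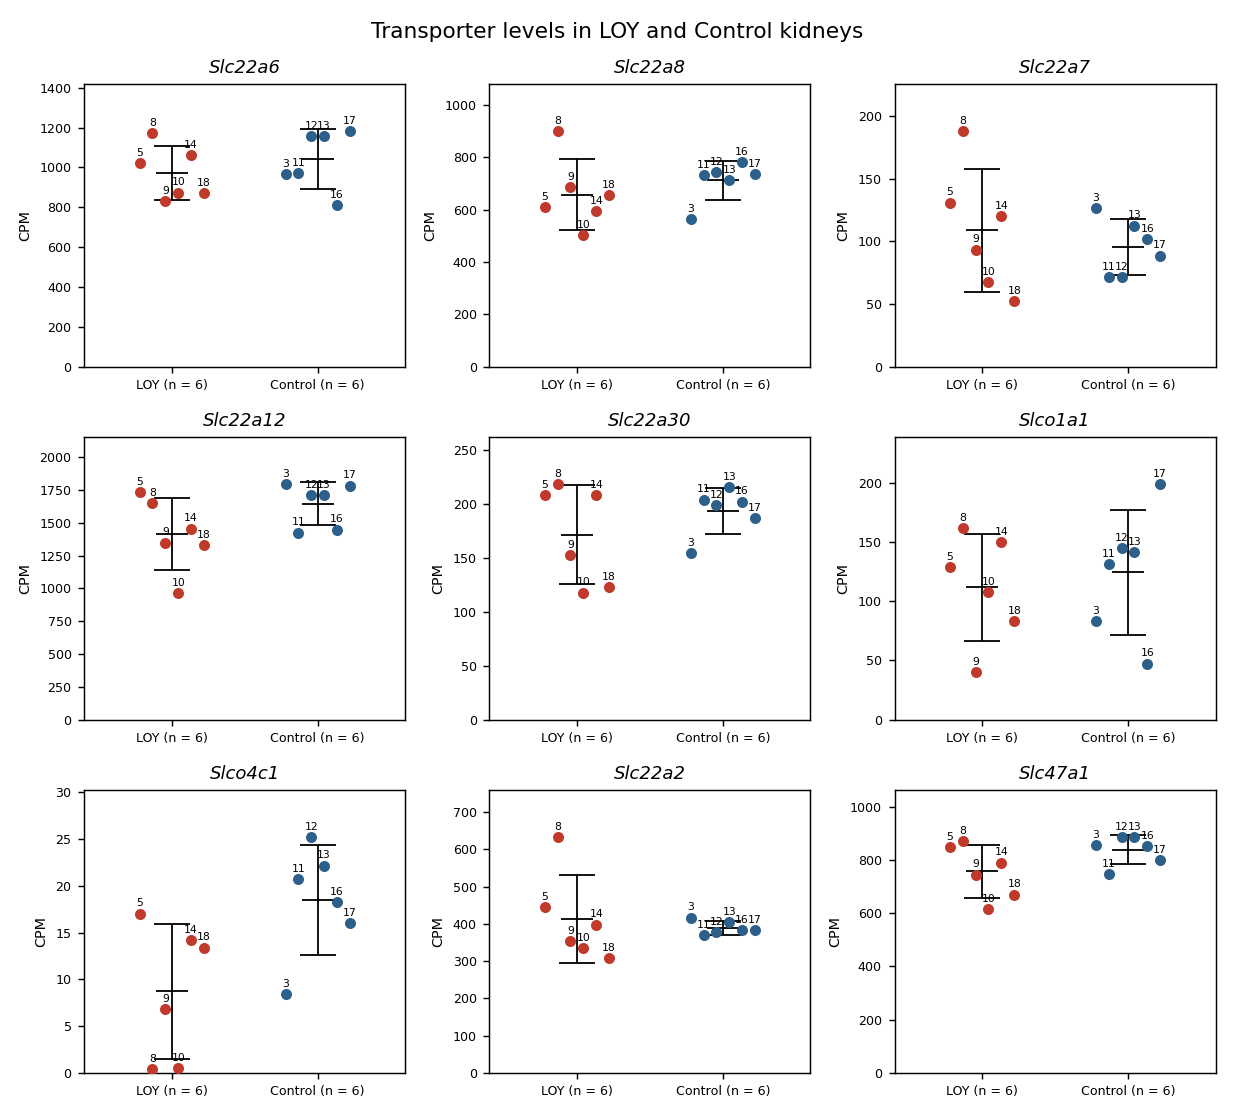
Levels of the 9 transporters (CPM) in LOY kidneys (left, red) and Control kidneys (right, blue), n = 6 each. Numbers are animals, bars are mean ± SD. The groups overlap in all panels, and the LOY kidneys at 0.370 and 0.510 CPM of Slco4c1 are animals 8 and 10.

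Organic anion uptake begins with OAT1 and OAT3. OAT1 (Slc22a6), the carrier of p-aminohippurate, had a lowest, median and highest level of 831, 947 and 1172 CPM in LOY kidneys and of 810, 1065 and 1184 CPM in Control kidneys. Both groups covered nearly the same span, with the lowest kidney of all in Control animal 16. Between groups the log2 fold change was -0.10 ± 0.13 (SE) with a 95% interval of -0.38 to 0.18 (edgeR adjusted p = 0.646).

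OAT3 (Slc22a8), which carries steroid sulfates and many drugs, ran from 501 over a median of 631 to 901 CPM in LOY kidneys and from 565 over 734 to 782 CPM in Control kidneys. LOY kidneys held both the lowest value, in animal 10, and the highest, in animal 8. In edgeR the log2 fold change was -0.11 ± 0.14 (interval -0.41 to 0.18, edgeR adjusted p = 0.619).

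OAT2 (Slc22a7, chromosome 17, 46432183 to 46438457, minus strand), a further organic anion transporter, had 52.4, 107 and 188 CPM as lowest, median and highest level in LOY kidneys and 71.3, 95.3 and 126 CPM in Control kidneys. The LOY kidneys spread to both sides of the Control kidneys, from animal 18 at the bottom to animal 8 at the top. Its log2 fold change of 0.19 ± 0.26 (interval -0.36 to 0.74, edgeR adjusted p = 0.660) became -0.04 without LOY animal 8 and -0.06 with animal number above 10 as a term.

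Slc22a30, an SLC22 gene of the chromosome 19 cluster in the mouse, had 118, 181 and 219 CPM in LOY kidneys and 155, 201 and 216 CPM in Control kidneys (lowest, median, highest). LOY kidneys of animals 9, 10 and 18 lay below all Control kidneys and the other LOY kidneys lay among or above them. As fitted, the log2 fold change was -0.18 ± 0.16 (interval -0.52 to 0.17, edgeR adjusted p = 0.502). Of its 31-base words, 43.2% also occur in transcripts of other genes, 39.4% in Slc22a28, so counts of these genes may be mixed. Slc22a28 itself was at 153 CPM in LOY and 183 CPM in Control kidneys, with a log2 fold change of -0.26 (edgeR adjusted p = 0.397).

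Slco1a1 (OATP1A1, chromosome 6, 141907282 to 141946962, minus strand), an apical anion carrier that in the mouse kidney depends on androgens, had 40.1, 118 and 162 CPM in LOY kidneys and 47.4, 136 and 199 CPM in Control kidneys (lowest, median, highest). LOY animal 9 and Control animal 16 were both far below the rest of their groups. The log2 fold change of -0.15 ± 0.33 (interval -0.86 to 0.55, edgeR adjusted p = 0.790) became 0.02 without LOY animal 9 and 0.01 without Control animal 17.

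Slco4c1 (OATP4C1, chromosome 1, 96816270 to 96872171, minus strand) is the basolateral carrier of digoxin and uremic toxins. Its lowest, median and highest levels were 0.370, 10.1 and 17.0 CPM in LOY kidneys and 8.43, 19.5 and 25.2 CPM in Control kidneys. LOY animals 8 and 10 had 5 and 9 counts, where the other LOY kidneys had 96 to 276 counts and Control kidneys 114 to 339. The groups overlapped, because LOY animals 5, 14 and 18 were above Control animal 3. Between groups the log2 fold change was -1.08 ± 0.62 with a 95% interval of -2.40 to 0.24 (edgeR adjusted p = 0.293), and it was -0.54 without LOY animals 8 and 10. These 2 kidneys were also the lowest of the LOY table for the summed S1 and S2 markers, at 5603 and 4071 CPM. The length index was -0.94 in animal 8 and 0.00048 in animal 10. Slco4c1 has the longest exon sequence of the 9 genes (4908 bases), followed by Slco1a1 (4056 bases) and Slc22a6 (3983 bases). Log2 deviations of Slco1a1 and Slc22a6 from their means over the LOY table were 0.59 and 0.23 in animal 8. In animal 10 they were 0.0063 and -0.19. Whether transcript length or tubule state had a part in the low counts of Slco4c1 was not tested.

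Organic cations pass through OCT2 and MATE1. OCT2 (Slc22a2, chromosome 17, 12584132 to 12628488, plus strand) had 308, 376 and 633 CPM in LOY kidneys and 369, 383 and 417 CPM in Control kidneys (lowest, median, highest). The Control kidneys were tightly grouped, with a coefficient of variation of 4.58%, against 28.7% in LOY kidneys. LOY animal 8 held the highest value. In edgeR the log2 fold change was 0.08 ± 0.15 (interval -0.25 to 0.41, edgeR adjusted p = 0.756), and -0.08 without LOY animal 8. Of its 31-base words 7.02% are shared with other annotated genes.

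MATE1 (Slc47a1, chromosome 11, 61343401 to 61378345, minus strand) had 616, 767 and 870 CPM in LOY kidneys and 747, 854 and 885 CPM in Control kidneys (lowest, median, highest). LOY animals 9, 10 and 18 were below all Control kidneys. Its log2 fold change of -0.15 ± 0.11 had the narrowest interval of the 9, -0.39 to 0.10 (edgeR adjusted p = 0.425).

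URAT1 (Slc22a12), the urate reabsorber of the apical membrane, had 963, 1403 and 1732 CPM in LOY kidneys and 1426, 1711 and 1796 CPM in Control kidneys (lowest, median, highest). LOY animals 9, 10 and 18 were below all Control kidneys here too. As fitted, the log2 fold change was -0.22 ± 0.14 (interval -0.53 to 0.09, edgeR adjusted p = 0.354). Slc22a12 overlaps Nrxn2 and Slco4c1 overlaps the antisense gene Panct2, both on the opposite strand. Slco1a1 overlaps the small RNA Gm22036 on the same strand. The strand setting of the counting is not given in the sources used here, so reads of the opposite-strand pairs cannot be told apart. For the same-strand pair no strand setting would separate them.

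**Figure D2:**
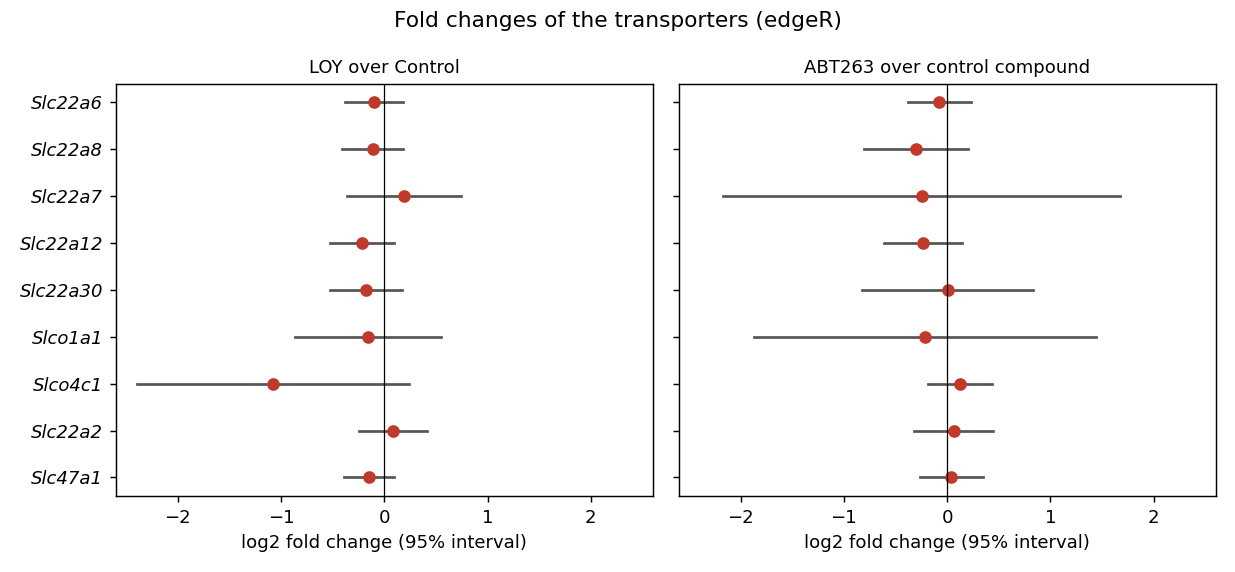
Log2 fold change with its 95% interval for each transporter, LOY over Control (left, n = 6 each) and ABT263 over control compound (right, n = 4 each), from edgeR. All intervals contain 0, and the widest are those of Slco4c1 in LOY kidneys and of Slc22a7 and Slco1a1 in ABT263 kidneys.

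Differences between kidneys were shared by several transporters. LOY animal 10 was the lowest of the 12 kidneys for 4 of the 9 and below the table mean for 8, with a median log2 deviation of -0.43. LOY animal 18 was the lowest for 2 and below the mean for 8 (median -0.24), and LOY animal 9 was below the mean for 8 (median -0.16). LOY animal 8 was the highest for 4 and lowest for Slco4c1 (median 0.29). Its length index was -0.94, against -0.24 to 0.26 in the other kidneys of the LOY table. Its androgen-dependent genes summed to 56259 CPM, against 17549 to 34387 CPM in the other LOY kidneys and 23292 to 28952 CPM in Control kidneys. Of the 6 genes in that sum, LOY animal 8 was the highest of the 12 kidneys for 2 and the lowest for 2. The coefficient of variation was larger in LOY than in Control kidneys for 7 of the 9, and for 80.7% of all tested genes. The sum of the tubular injury genes ran from 3113 to 7648 CPM in LOY kidneys and from 1517 to 2954 CPM in Control kidneys, with the highest value in LOY animal 10. The part of either sum, or of transcript length, in the transporter levels was not tested.

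**Figure D3:**
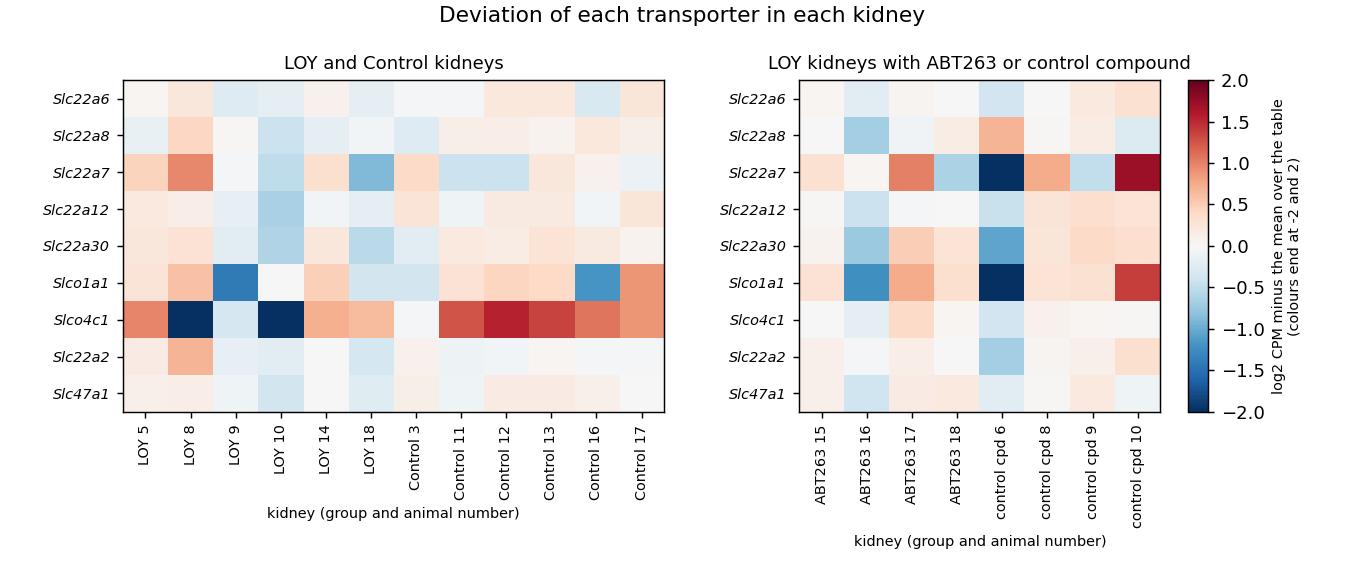
Log2 CPM of each transporter minus its mean over the table, per kidney, for the LOY table (left) and the ABT-263 table (right). LOY animals 8 and 10 are lowest for Slco4c1, and control-compound animal 6 is low for all transporters except Slc22a8.

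Related transporters were examined as lists. Of 27 other SLC22, SLCO and SLC47 genes, 21 were tested, 0 passed in edgeR and 5 had an unadjusted p under 0.05, all lower. Over all tested genes 22.8% had such a p, in either direction. In this list 17 had a log2 fold change below 0, and the median was -0.18. Slc22a4, the ergothioneine transporter OCTN1, averaged 59.0 ± 10.9 CPM in LOY and 85.3 ± 9.37 CPM in Control kidneys (log2 fold change -0.53 ± 0.13, edgeR adjusted p = 0.0527). Its adjusted p was 0.00528 in DESeq2 and 0.00226 in limma voom, fits in which more of all tested genes passed than in edgeR. Over 22 alternatives its adjusted p ran from 0.00226 to 0.309, and it passed in 6 of them. Slco1a6, a relative of Slco1a1 on chromosome 6, averaged 160 ± 40.1 CPM in LOY and 248 ± 51.8 CPM in Control kidneys (-0.63 ± 0.18, edgeR adjusted p = 0.10).

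Of 12 efflux and urate transporters, 1 fell in LOY kidneys, against 0.0601% of all genes that fell. This was Slc17a4, a phosphate transporter relative that also carries urate. It ran from 3.11 to 4.19 CPM in LOY kidneys and from 4.95 to 7.59 CPM in Control kidneys, so that the groups did not overlap. The log2 fold change was -0.82 ± 0.17 (edgeR adjusted p = 0.0365). The call was lost in 8 of 12 fits that left out 1 kidney, with log2 fold changes of -0.88 to -0.77, and its adjusted p ran from 0.000476 to 0.175 over 22 alternatives. The list had 11 of 12 values below 0 and a median of -0.34. An unadjusted p under 0.05 was found for 6 of the 12, all lower, against 22.8% of all tested genes in either direction. Abcg2, the urate and drug exporter BCRP, was at 330 CPM in LOY and 427 CPM in Control kidneys (-0.37, edgeR adjusted p = 0.168), and Abcc2, the anion exporter MRP2, at 277 CPM in LOY and 365 CPM in Control kidneys (-0.40, edgeR adjusted p = 0.184).

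Of 7 genes that build the gradients or hold the carriers in the membrane, 0 passed in edgeR, and the median log2 fold change was -0.16. An unadjusted p under 0.05 was found for 1 gene of this list, against 22.8% of all tested genes. The 1 gene was Slc9a3, the sodium-proton exchanger NHE3, with 31.8 ± 16.0 CPM in LOY and 56.9 ± 14.0 CPM in Control kidneys (-0.83 ± 0.35, edgeR adjusted p = 0.192). Of 8 transcriptional regulators 0 passed and the median was -0.31. Ppara, a fatty acid sensor, averaged 92.9 ± 30.5 CPM in LOY and 135 ± 44.6 CPM in Control kidneys (-0.54 ± 0.25, edgeR adjusted p = 0.216).

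Markers of the tubule segments stood beside these. All 10 S1 and S2 markers had log2 fold changes below 0 (median -0.70), 9 of them with an unadjusted p under 0.05 and 0 past the threshold. Among all tested genes 22.8% had an unadjusted p under 0.05. The lowest kidney was LOY animal 8, with a length index of -0.94, for 8 of the 10 markers and LOY animal 10 for 2. The other LOY kidneys summed to 8328 to 9260 CPM of these markers, and Control kidneys to 8958 to 12575 CPM. The 5 S3 markers had a median of -0.0050 and summed to 5274 to 9507 CPM in LOY and 8329 to 10386 CPM in Control kidneys. Among all 14978 tested genes, 167 rose and 9 fell. Of 7 macrophage markers 4 rose, of 5 T cell markers 3 rose, and of 9 tubular injury genes 7 rose, while 0 of 6 androgen-dependent genes passed. All of these calls were lost without Control animal 16, without Control animal 17 and with animal number above 10 as a term, fits in which 0 genes of the table passed. Macrophage markers summed to 410 to 546 CPM in LOY kidneys and 218 to 361 CPM in Control kidneys. The part of any of these in the transporter levels was not tested.

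**Figure D4:**
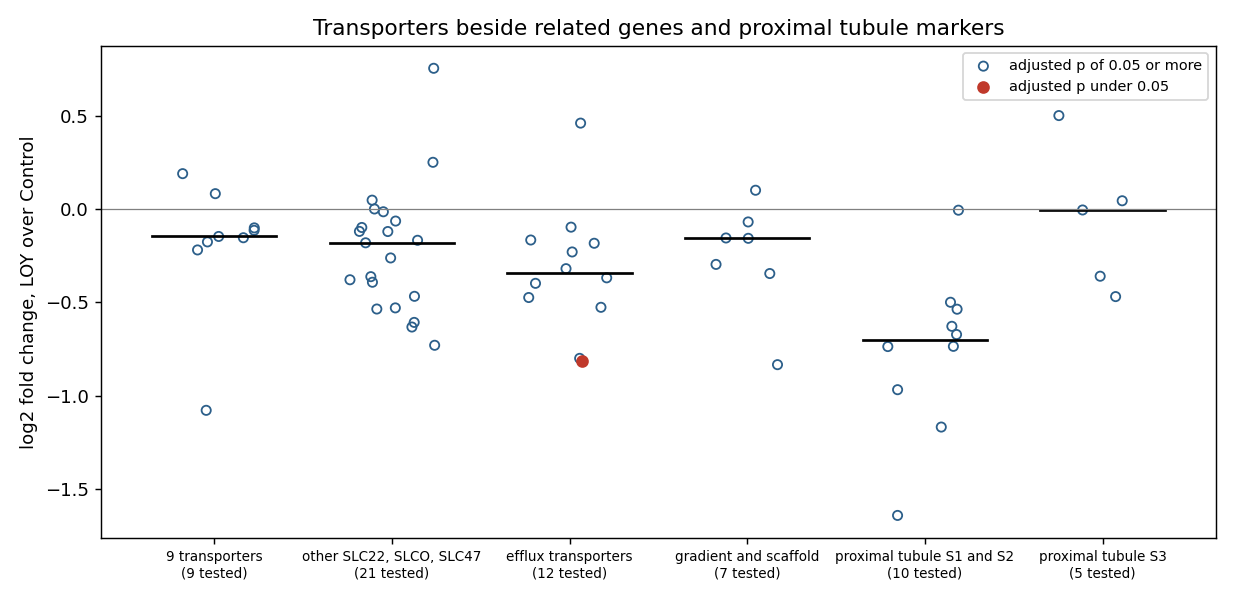
Log2 fold change (LOY over Control) of the 9 transporters and of related lists, 1 circle per tested gene with the list median as a bar. The transporters have a median of -0.15, against -0.70 for the S1 and S2 markers, and the filled circle is Slc17a4, the 1 gene shown that fell. LOY animals 8 and 10 were the lowest kidneys for 8 and 2 of the 10 S1 and S2 markers.

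ABT-263 and the control compound were compared in LOY mice to see what the senolytic changes in their kidneys. Of the 9 transporters 0 passed in edgeR, and 0% of the 16956 tested genes passed. None of the 9 had an unadjusted p under 0.05, against 1002 genes (5.91%) in all, and 0 of the 9 passed in DESeq2 (44 genes) or limma voom (11 genes). Groups overlapped for all 9, where 4.29% of genes had groups that did not overlap. Log2 fold changes lay between -0.30 and 0.13, 4 above and 5 below 0, with a median of -0.08 beside -0.0028 over all tested genes. Animal numbers were 15 to 18 with ABT-263 and 6 to 10 with the control compound, so number and compound cannot be told apart.

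**Figure D5:**
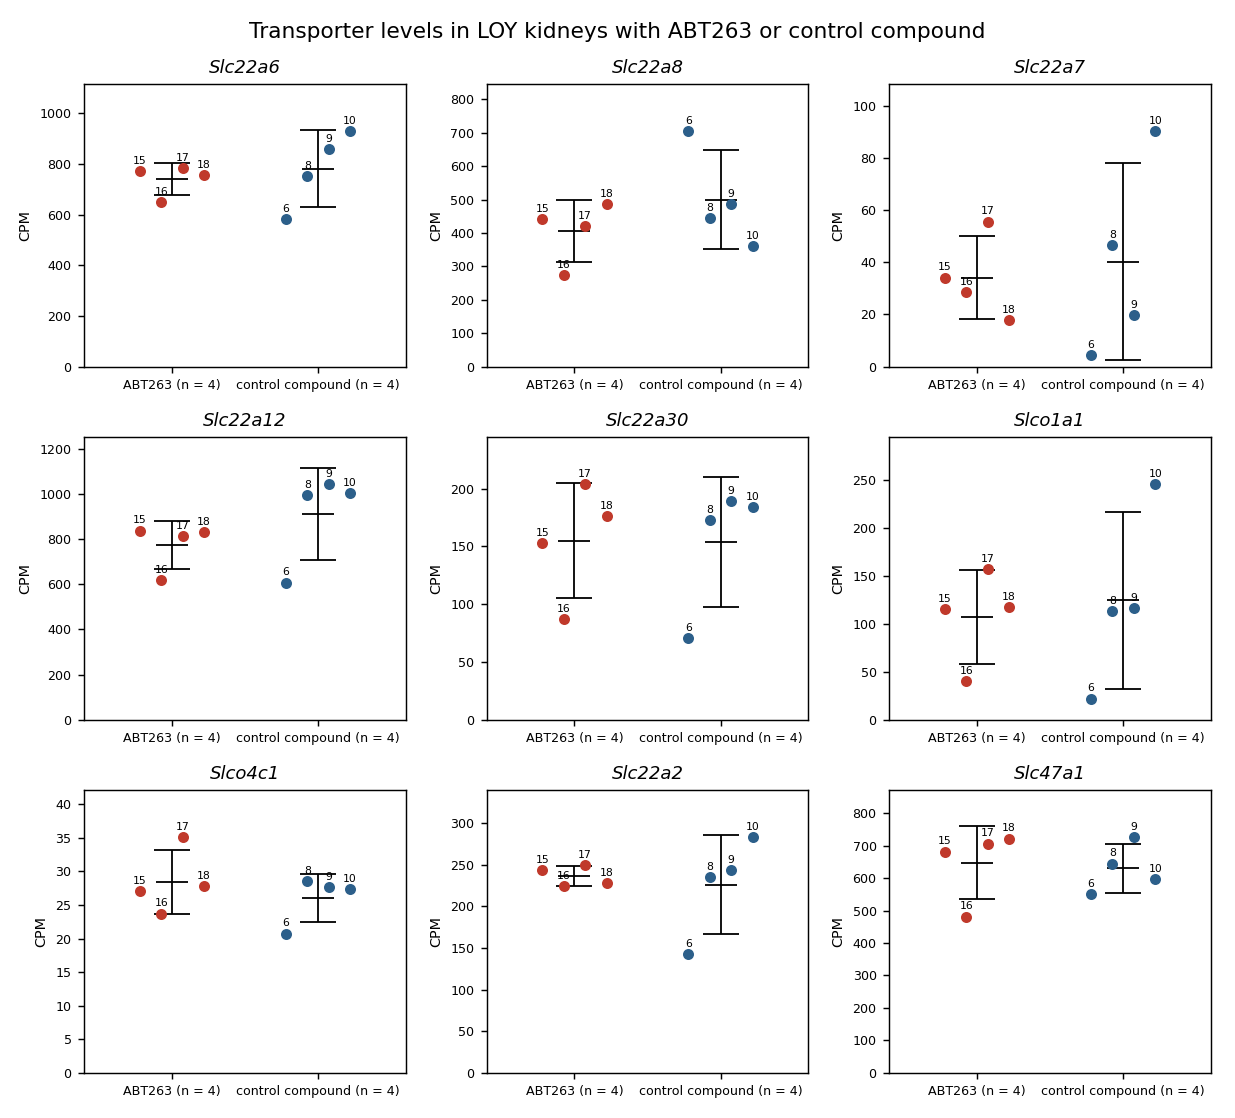
Levels of the 9 transporters (CPM) in LOY kidneys with ABT-263 (left, red) and with the control compound (right, blue), n = 4 each. Numbers are animals, bars are mean ± SD. Control-compound animal 6 is lowest for 7 transporters and highest for Slc22a8, and ABT263 animal 16 is lowest for Slc22a8 and Slc47a1.

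OAT1 (Slc22a6) had 771, 650, 785 and 755 CPM in ABT263 animals 15, 16, 17 and 18, and 581, 753, 859 and 931 CPM in control-compound animals 6, 8, 9 and 10. The ABT263 kidneys lay inside the span of the control-compound kidneys. Between groups the log2 fold change was -0.08 ± 0.14 (interval -0.38 to 0.23, edgeR adjusted p = 0.952).

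OAT3 (Slc22a8) had 442, 274, 420 and 487 CPM in ABT263 animals 15, 16, 17 and 18, and 706, 446, 487 and 361 CPM in control-compound animals 6, 8, 9 and 10. Its highest kidney was control-compound animal 6, the one that was lowest for its neighbour Slc22a6. In edgeR the log2 fold change of -0.30 ± 0.23 (interval -0.81 to 0.20, edgeR adjusted p = 0.860) turned to 0.06 without control-compound animal 6 and ABT263 animal 16, a pair left out after the data were seen.

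OAT2 (Slc22a7) had 34.1, 28.5, 55.6 and 17.8 CPM in ABT263 animals 15, 16, 17 and 18, and 4.28, 46.5, 19.7 and 90.4 CPM in control-compound animals 6, 8, 9 and 10. The control-compound kidneys spread 21.1-fold between animals 6 and 10, and the ABT263 kidneys 3.12-fold. Its log2 fold change was -0.24 ± 0.81 with an interval of -2.17 to 1.68, and 0.53 without control-compound animal 10 (edgeR adjusted p = 0.975 with all kidneys).

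Slc22a30 had 153, 87.1, 204 and 176 CPM in ABT263 animals 15, 16, 17 and 18, and 70.4, 173, 190 and 184 CPM in control-compound animals 6, 8, 9 and 10. In each group 1 kidney lay far below the other 3, ABT263 animal 16 and control-compound animal 6. As fitted, the log2 fold change was 0.01 ± 0.36 (interval -0.82 to 0.84, edgeR adjusted p = 0.999).

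Slco1a1 had 115, 40.0, 157 and 117 CPM in ABT263 animals 15, 16, 17 and 18, and 22, 114, 116 and 246 CPM in control-compound animals 6, 8, 9 and 10. The same 2 kidneys were low, and control-compound animal 10 was the highest. The log2 fold change was -0.21 ± 0.70 (interval -1.87 to 1.44, edgeR adjusted p = 0.975), and 0.35 without control-compound animal 10.

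Slco4c1 had 27.1, 23.7, 35.1 and 27.8 CPM in ABT263 animals 15, 16, 17 and 18, and 20.7, 28.6, 27.6 and 27.4 CPM in control-compound animals 6, 8, 9 and 10. None of the 8 kidneys had under 353 counts of it, and the groups overlapped. Between groups the log2 fold change was 0.13 ± 0.14 (interval -0.18 to 0.44, edgeR adjusted p = 0.913).

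OCT2 (Slc22a2) had 243, 225, 250 and 228 CPM in ABT263 animals 15, 16, 17 and 18, and 143, 235, 243 and 283 CPM in control-compound animals 6, 8, 9 and 10. The ABT263 kidneys were close together, with a coefficient of variation of 5.14%, against 26.3% with the control compound. Control-compound animal 6 lay far below the rest of its group and was the lowest kidney of the table. In edgeR the log2 fold change was 0.06 ± 0.17 (interval -0.32 to 0.45, edgeR adjusted p = 0.971).

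MATE1 (Slc47a1) had 682, 481, 707 and 722 CPM in ABT263 animals 15, 16, 17 and 18, and 550, 645, 726 and 598 CPM in control-compound animals 6, 8, 9 and 10. ABT263 animal 16 was the lowest of the 8. Its log2 fold change was 0.04 ± 0.14 (interval -0.26 to 0.34, edgeR adjusted p = 0.975).

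URAT1 (Slc22a12) had 837, 616, 812 and 832 CPM in ABT263 animals 15, 16, 17 and 18, and 607, 993, 1044 and 1002 CPM in control-compound animals 6, 8, 9 and 10. Apart from 1 low kidney in each group, the ABT263 kidneys lay together below the control-compound kidneys. As fitted, the log2 fold change was -0.24 ± 0.17 (interval -0.61 to 0.14, edgeR adjusted p = 0.858). Without control-compound animal 6 and ABT263 animal 16 it was -0.29 with an edgeR adjusted p of 0.0284, in a fit in which 388 genes passed, where the adjusted p over 16 alternatives ran from 0.0284 to 0.999. Leaving out these kidneys was chosen after the data were seen, and Slc22a12 was the only transporter of the 9 to pass in any of 16 alternatives.

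Control-compound animal 6 was the lowest of the 8 kidneys for 7 of the 9 transporters, and for 5 of 6 androgen-dependent genes. Kap, the kidney androgen-regulated protein, was at 4005 CPM there and at 10629 to 13657 CPM in the other control-compound kidneys. Cyp7b1, a steroid hydroxylase of the S3 segment, was at 28.8 CPM there and at 101 to 165 CPM in the other control-compound kidneys. ABT263 animal 16 was the lowest or next to lowest for 8 of the 9 transporters and for 5 of 6 androgen-dependent genes, and was the highest for 4 of 9 tubular injury genes, with Havcr1 (KIM-1) at 735 CPM, against 28.1 to 55.0 CPM in the other ABT263 kidneys. Whether androgen response or injury had a part in the transporter levels of these 2 kidneys was not tested. The coefficient of variation was larger in ABT263 than in control-compound kidneys for 2 of the 9, and for 41.5% of all tested genes.

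Related genes were examined in the ABT-263 table as well. Of 21 tested other SLC22, SLCO and SLC47 genes, of 12 efflux transporters, of 7 gradient and scaffold genes and of 8 regulators, 0 passed in edgeR. The lists had 0, 0, 2 and 2 genes at an unadjusted p under 0.05, against 5.91% of all tested genes. Slc13a3, the dicarboxylate transporter NaDC3 that feeds OAT1 and OAT3, averaged 524 ± 36.1 CPM in ABT263 and 653 ± 39.7 CPM in control-compound kidneys (log2 fold change -0.32 ± 0.09, edgeR adjusted p = 0.657). Slc9a3 averaged 184 ± 24.3 CPM in ABT263 and 150 ± 16.8 CPM in control-compound kidneys (0.29 ± 0.11, edgeR adjusted p = 0.816). Bcl6, a repressor of sex-biased liver genes in the mouse, averaged 85.7 ± 29.1 CPM in ABT263 and 21 ± 3.66 CPM in control-compound kidneys (2.03 ± 0.25, edgeR adjusted p = 0.265). Slc17a4 was at 6.54 ± 1.17 CPM in ABT263 and 4.90 ± 0.997 CPM in control-compound kidneys (0.42 ± 0.20, edgeR adjusted p = 0.827). Its call as lower in LOY than in Control kidneys was lost in 8 of 12 fits that left out 1 kidney.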

How the data were processed

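Per the labels' protocols, total RNA of each kidney was purified with QIAzol and RNeasy reagents, made into libraries and read on a NovaSeq X. The deposited tables hold gene counts by the authors, whole and not normalised, with mm10 as the genome build per the submitters' processing notes. The aligner, the counter, the strand setting and the gene annotation behind them were not given in the sources used here. A row without gene name (0.223% to 0.401% of counts in the LOY table) was left out.

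Each table was fitted alone over all genes in R 4.3.3 with edgeR 4.0.16, using TMM scaling, filterByExpr (minimum count 10, minimum total 15), robust quasi-likelihood F test, and Benjamini-Hochberg adjustment over all tested genes with a threshold of 0.05. The script was tested on simulated data. Deviations per kidney used log2(CPM + 0.1), distances between genes a prior count of 2. DESeq2 1.42.0, limma 3.58.1 voom, other scalings, filters and subsets of kidneys were alternatives. Libraries of a group differed beyond counting noise (at least 4.00 and 3.41 times Poisson over 30 and 12 pairs). The p-values set group differences against this spread. With 1 library per animal, differences between animals and between library preparations cannot be told apart.

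All 9 transporters were named. From each other list, genes past the threshold (at most 4 by p) or else the 2 of smallest p were named, and some of these are not reported here; Slc22a28, Abcg2, Abcc2, Slc17a4 in the ABT-263 table and single marker genes were added after their values were seen. The transporters and lists were chosen with earlier results of these data known. Exon lengths come from GENCODE M21, and 7 of 9 promoters were matched by symbol in RefSeq; those of Slc47a1 and Slc22a7 were not.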

Additional observations from a re-analysis of the deposited data

Results flagged for a closer look

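Of 184 groups of named genes, 13 held 1 kidney far from the others, by a rule that chance meets in about 1 of 20 groups. Of these, 6 were levels of the 9 transporters. Several of the 13 fell in the same kidney, so they are not independent of each other. In ABT263 animal 16, Slc22a12 was at 616 CPM, where the other ABT263 kidneys had 812 to 837 CPM, and Slc47a1 was at 481 CPM, where they had 682 to 722 CPM. In the same kidney Fgb, a fibrinogen chain, was at 251 CPM, where the others had 3.73 to 6.66 CPM, and C1qc was at 39.3 CPM, where they had 28.3 to 29.6 CPM. In control-compound animal 6, Slc22a12 was at 607 CPM, where the other control-compound kidneys had 993 to 1044 CPM. There Slc22a30 was at 70.4 CPM (others 173 to 190 CPM) and Slco4c1 at 20.7 CPM (others 27.4 to 28.6 CPM). Slc7a13, an S3 amino acid transporter, was at 328 CPM there (others 779 to 849 CPM). ABT263 animal 18 had 53.1 CPM of Vcam1, where the other ABT263 kidneys had 42.8 to 44.1 CPM.

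In the LOY table, LOY animal 8 had 122 CPM of C1qa (other LOY kidneys 62.4 to 71.5 CPM) and 10.7 CPM of Cd3g (others 2.15 to 4.19 CPM). Control animal 3 had 565 CPM of Slc22a8, where the other Control kidneys had 713 to 782 CPM, and 2478 CPM of Spp1, where they had 1283 to 1696 CPM.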

How the results depend on the processing

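In LOY against Control, 0 of the 9 transporters passed in all 22 alternatives, and 188 of 198 fold changes kept their sign. All genes past the threshold numbered 105 with library totals, 866 in DESeq2, 1062 in limma voom, 0 with animal number above 10 as a term (1194 at an unadjusted p under 0.05), 451 in animals above 10 alone, 29 without LOY animals 8 and 10, and 0 to 607 without 1 kidney, against 176. Reversed were Slc22a2 (-0.048 with the number term, -0.12 above 10, -0.066 without LOY animals 8 and 10), Slc22a7 (-0.058 with the number term, -0.057 above 10) and Slco1a1 (0.015 with the number term). Without 1 kidney Slc22a2 ran from -0.081 to 0.15, Slc22a7 from -0.038 to 0.33, Slco1a1 from -0.32 to 0.019 and Slco4c1 from -1.40 to -0.83. Slco4c1 was -0.53 with the number term and -0.57 above 10 (edgeR adjusted p = 0.0848, range over alternatives 0.0848 to 0.914). Slc17a4 missed the threshold with the number term (edgeR adjusted p = 0.175) and without LOY animals 8 and 10 (0.0796). In ABT263 against control compound, 127 of 144 fold changes kept sign and call. Genes past the threshold numbered 44 in DESeq2, 11 in limma voom, 388 without control-compound animal 6 and ABT263 animal 16 (1 transporter), and 0 to 9 without 1 kidney. Reversed were Slc22a2 (-0.022 in voom, -0.077 without the 2 kidneys), Slc22a30 (-0.056 and -0.034) and Slc22a8 (0.062 without the 2 kidneys). Without 1 kidney Slc22a2 ran from -0.10 to 0.19, Slc22a6 from -0.20 to 0.018, Slc22a7 from -0.62 to 0.53, Slc22a30 from -0.23 to 0.21, Slco1a1 from -0.56 to 0.35 and Slc47a1 from -0.019 to 0.16. The causes were not tested. No paired analysis was possible because the groups compared share no animal number. The depth gave at least 353 counts of each transporter in every kidney, except Slco4c1 in the LOY table (5 to 339) and Slc22a7 in the ABT-263 table (73 to 1814).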

Other observations

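The genes whose log2 levels lay nearest to each transporter over the 12 kidneys of the LOY table, each centred on its own mean, are given as values, since kidneys of both groups enter the distance. Of the 14387 candidates (mean CPM of 1 or more), Slc22a12 lay nearest to Pth1r, the parathyroid hormone receptor (root mean square distance 0.07), and Pdzd3, a scaffold protein (0.08). Slc22a6 lay nearest to Ces1f (0.09) and Amz2 (0.11), Slc22a8 to Cul9 (0.08) and 1700052K11Rik (0.09), and Slc22a2 to Phb (0.08) and Ephx2 (0.09). Slc47a1 lay nearest to Suds3 (0.06) and Nipsnap1 (0.07). Slc22a30 lay nearest to the peroxisomal reductase Pecr (0.15) and Apeh (0.15). The SDs of these transporters over the kidneys were small too: 0.26 for Slc22a12, 0.20 for Slc22a6, 0.23 for Slc22a8, 0.26 for Slc22a2, 0.17 for Slc47a1 and 0.32 for Slc22a30. Slc22a7 lay nearest to Kap (0.23) and Zfp937 (0.23), where its own SD over the kidneys was 0.51. For Slco1a1 the nearest was B130055M24Rik, at 0.44 beside an SD of 0.71, and for Slco4c1 it was Pde6a, at 0.65 beside an SD of 1.93.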
